A study of Mus musculus with 22 samples.

Results

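The 39 genes described here encode blood plasma proteins of the complement and coagulation systems, and they were followed through MYC-driven liver tumours of the mouse. They were taken by symbol from a fixed list of 39 names. All 39 were found among the 24063 genes of the first deposited table and the 24019 genes of the second, and all 39 passed the filter on low values in both. Of them, 19 belong to complement and 20 to blood clotting, its inhibitors and clot removal.

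Complement is a chain of plasma proteases that marks targets for uptake and ends in a pore-forming complex. It is started by recognition molecules such as the mannose-binding lectins, runs through C3 and finishes with C5 (Hc in the mouse) to C9. Coagulation is a related chain in which contact factors and vitamin K dependent proteases generate thrombin, thrombin turns fibrinogen into fibrin, and plasmin dissolves the clot. Hepatocytes make most of these proteins, and many of their genes are known to answer to the acute phase response and to liver transcription factors such as HNF1 and C/EBP.

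RNA was sequenced from 22 tumours of C57BL/6 mice, which were given no treatment. The tumours were raised by hydrodynamic injection into the tail vein, a fast injection of much fluid that carries DNA into hepatocytes. Every tumour carried MYC. The second driver was β-catenin (bcat or CTNNB1 in the labels) or the targeting of p53 (labelled sgp53 in the second set), and each pair came with lucOS, a luciferase joined to peptides that T cells can recognise, or with luciferase alone (luc). Set 1 held myc.lucOS.bcat (2 tumours), myc.lucOS.p53 (3), myc.luc.bcat (4) and myc.luc.p53 (3). Set 2 held MYC.lucOS.CTNNB1 (3), MYC.luc.CTNNB1 (3) and myc.lucOS.p53 (4). Ages are not used here. Whether any animal gave more than 1 tumour is not stated in the labels, and p-values therefore measure the spread between samples, which may be partly technical. The 2 tables were scaled separately and were compared only within themselves.

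Total reads over genes ran from 33.706 to 54.873 M per tumour in set 1 and from 33.551 to 50.116 M in set 2. Trp53 was at 3296 to 4994 normalised reads in β-catenin tumours and 1423 to 2280 in p53 tumours of set 1, and at 2632 to 4405 in β-catenin tumours and 1345 to 2223 in p53 tumours of set 2. Axin2, a β-catenin target, was at 868 to 3587 normalised reads in β-catenin tumours of set 1 and at 12.2 to 102.6 in p53 tumours, and lucOS tumours of set 2 had 349.1 to 1047 with β-catenin and 2.38 to 11.04 with p53. Neither gene overlapped between drivers within a set, but reads over Trp53 do not show whether the gene was edited. Of 10 hepatocyte markers, the 9 in the tables were above 0 in all groups. Their summed level was 1232400 to 1508900 normalised reads in luc β-catenin tumours and 538350 to 894830 in luc p53 tumours. Of these sums, Alb alone was at 447750 to 555040 in luc β-catenin tumours and 105920 to 313380 in luc p53 tumours. Among lucOS tumours of set 1 the sums were 1172700 to 1195300 with β-catenin and 624180 to 973530 with p53, and in set 2 lucOS tumours they were 413960 to 1320400 with β-catenin and 383780 to 698930 with p53.

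A gene's level is given as normalised reads, the deposited whole reads divided by a factor per sample. Divided by transcript length, the members spanned a wide range. C3, the central component of complement, had a mean of 50619 normalised reads per kb in set 1 and 36122 in set 2. The fibrinogen chains Fga and Fgg had means of 45451 and 36269 per kb in set 1, below C3, and 44623 and 44881 in set 2, above it. Set 1 reads are those of 1 transcript and set 2 reads those of the gene, both divided by the same transcript length. The order is therefore read within each set only. At the other end, the terminal components C9 and C6 stood at 67.2 and 101.3 per kb in set 1 and at 38.4 and 111.2 in set 2. All 39 together took between 1.35% and 3.10% of the normalised reads of a tumour.

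Spread between tumours of 1 group also differed from member to member, measured as the SD of log2(value + 1) within groups. In set 1 it ran from 0.30 for C3 to 2.3 for C6, with a median of 0.56 over the members, against a median of 0.46 over all genes tested. In set 2 it ran from 0.29 for F2 (prothrombin) to 2.10 for C9, with a median of 0.78, against 0.39 over all genes. The SD was above the median of all genes for 26 of 39 members in set 1 and for 38 of 39 in set 2. The members with the widest spread in set 1, C6, C9 and C8a, all belong to the terminal complex. C9 and C8b led in set 2, followed by Mbl2 (1.40), F12 (1.36) and Serpinf2 (1.34), which do not belong to it. C6 and C9 also had the lowest levels per kb, and the part of counting error in their spread was not tested.

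**Figure D1:**
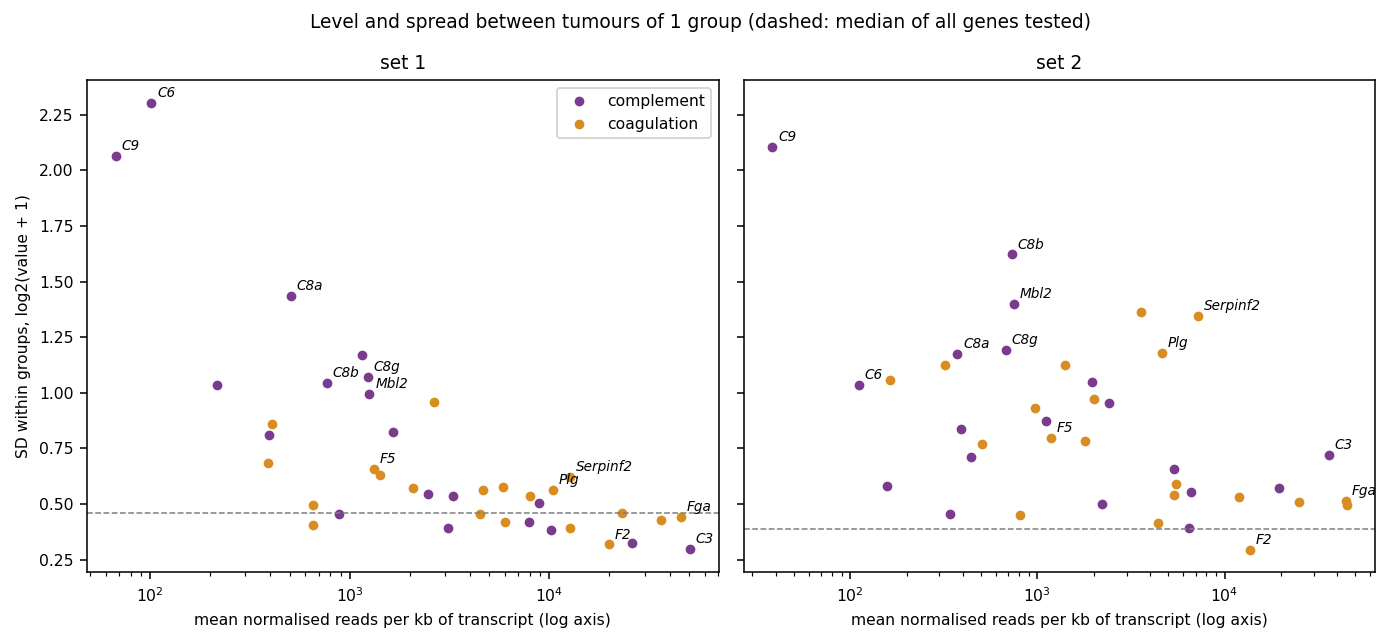
Mean level of each of the 39 genes (normalised reads per kb of transcript, log axis) against its SD within groups (log2(value + 1)), set 1 left and set 2 right, with complement and coagulation genes in separate colours and the median SD of all genes tested as a dashed line. C6 and C9 combine low levels with SDs of up to 2.3, while F2 and C3 in set 1 lie near 0.3.

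Single tumours stood at the end of the range for many members at once. The luc p53 tumour 2 was the lowest of the 12 tumours of set 1 for 18 of the 39 members, and luc β-catenin tumour 1 was the highest for 15. In set 2 the luc β-catenin tumour 1 was the lowest of 10 for 16 members, lucOS p53 tumour 1 for 9 and lucOS β-catenin tumour 1 for 8, so low tumours occurred with both drivers. The summed hepatocyte markers were 1404100 normalised reads in luc β-catenin tumour 1 and 538350 in luc p53 tumour 2 of set 1. In the luc β-catenin tumour 1 of set 2 they were 286250, the lowest of its set. The highest sum of set 1, 1508900, was in luc β-catenin tumour 3, which was highest for 4 members. In set 2 lucOS β-catenin tumour 2 had the highest sum, 1320400, and was highest for 1 member. The lucOS β-catenin tumour 3 of set 2, at 750040, was highest for 9. Whether these sums play a part in the members' values was not tested. These are bulk tumours, so fewer cells of a type and less RNA per cell cannot be told apart.

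**Figure D2:**
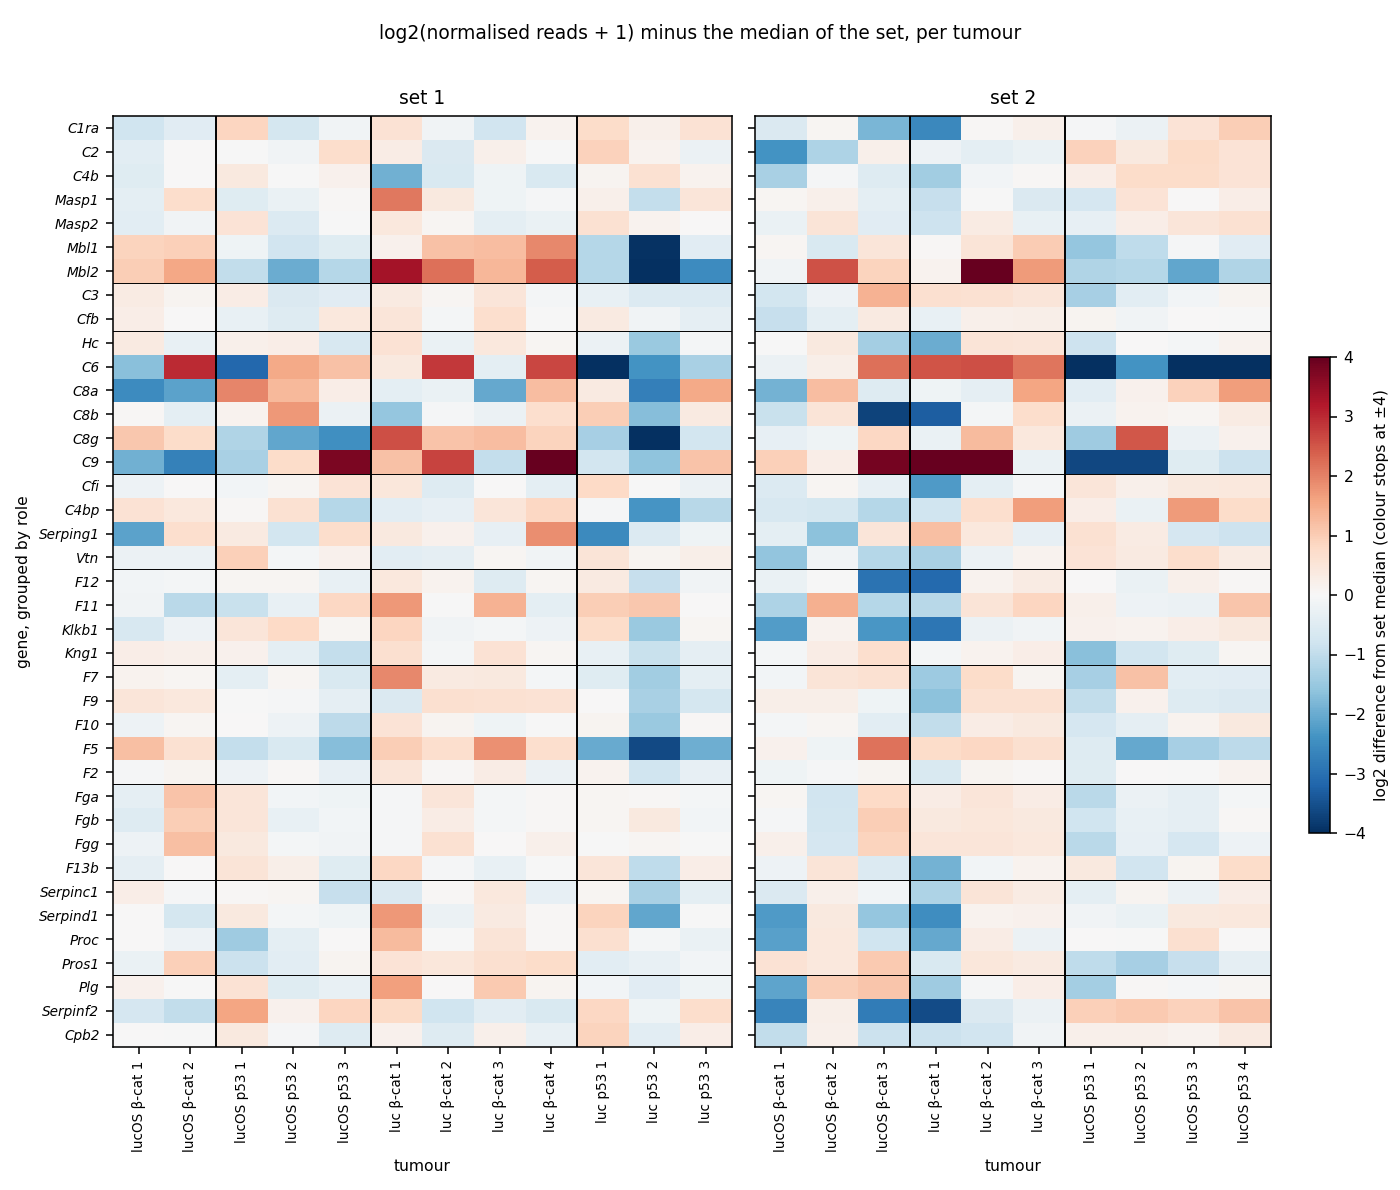
Each member (rows, grouped by role) in each tumour (columns), as log2(normalised reads + 1) minus the median of the set, with colours that stop at 4 in either direction and black lines between groups. The luc p53 tumour 2 of set 1 and the luc β-catenin tumour 1 of set 2 form blue columns, being the lowest for 18 and 16 members.

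The driver was compared, β-catenin against p53, among luc tumours of set 1 and among lucOS tumours of each set. Genes were called at a limma adjusted p under 0.05 over all genes tested. Among luc tumours, 5 of 39 members were called, or 12.8%, all higher with β-catenin, where 15.1% of all genes were called, 5.93% higher and 9.16% lower. Among lucOS tumours of set 1 no member was called, against 4.21% of all genes, 1.62% higher and 2.59% lower. Unadjusted p-values were under 0.05 for 5 members and 3809 genes there, and edgeR called 0 members. DESeq2 called 6 members there, or 15.4%, and 12.7% of all genes. Among lucOS tumours of set 2, 3 members were called higher and 2 lower, 12.8% of the members against 17% of all genes, of which 6.08% were higher and 10.9% lower. With limma on the deposited scaling and both directions pooled, the share of members called was thus below the share of all genes in each comparison. Among luc tumours the 5 calls were all higher, 12.8% of members against the 5.93% of all genes. Other tools gave there 17.9% of members and 11.8% of all genes (TMM rescaling), 17.9% and 11.1% (edgeR), and 30.8% and 20.5% (DESeq2). These shares are descriptions, and nothing particular to the members is read from them.

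The median log2 difference of the 39 members was 0.43 among luc tumours, where the median of all genes was -0.20. Among lucOS tumours it was 0.20 in set 1 and -0.15 in set 2, with all-gene medians of -0.15 and -0.16. After TMM rescaling (trimmed mean of M-values) the all-gene medians were -0.01, -0.0011 and -0.0062 and the members' medians 0.62, 0.35 and 0.0079, so the sign in set 2 turned with the scaling. Normalised reads did not overlap between the groups for 10 members higher and 2 lower with β-catenin among luc tumours, where 10.9% and 23.2% of all genes did so (34.1% in either direction). The counts were 6 and 5 among lucOS tumours of set 1 (13.5% and 24.3% of all genes, 37.8% in all) and 5 and 7 in set 2 (10.3% and 22.5%, 32.7% in all).

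Across the 3 comparisons 9 members were called at least once and 30 never. F5 was the only member called in more than 1. The difference was positive in all 3 comparisons for 13 members and negative in all 3 for 10, and the lucOS and luc tumours of set 1 are different tumours but were fitted together. Shares of all genes are given above for each comparison only, so nothing particular to the members is read from these counts.

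**Figure D3:**
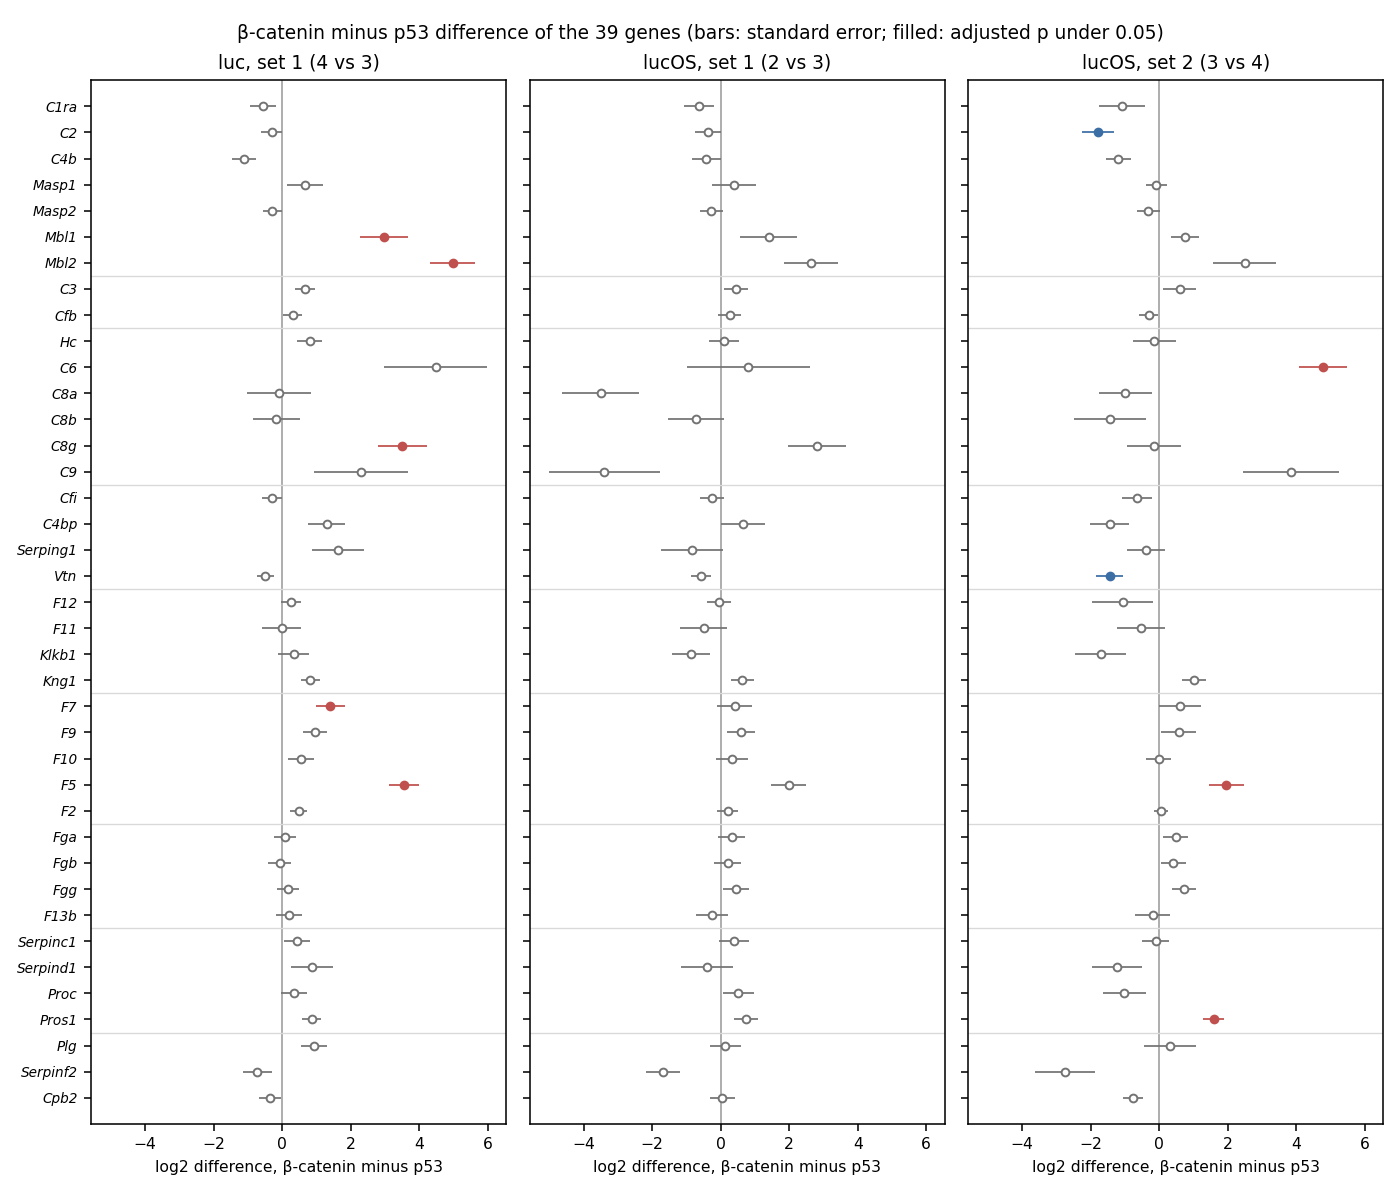
Log2 difference of normalised reads, β-catenin minus p53 tumours, for each member (rows, grouped by role) in the 3 comparisons, with bars for the standard error and filled points at an adjusted p under 0.05. Only F5 is filled in more than 1 panel, and the widest bars are those of C6 and C9 in the 2 panels of set 1 and of C9 and C8b in set 2.

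Of the 7 genes for recognition and the first proteases, the mannose-binding lectins Mbl1 and Mbl2 were higher with β-catenin among luc tumours, and C2 was lower with β-catenin in set 2. Mbl1 and Mbl2 bind sugars on microbial surfaces and start the lectin route. Mbl2 (chr19:30232942-30239687, plus strand, GRCm38) was at 5649, 2577, 1398 and 2978 normalised reads in the luc β-catenin tumours, against 255.3, 27.2 and 96.1 in the luc p53 tumours. There was no overlap, with tumour 1 of the β-catenin group highest and tumour 2 of the p53 group lowest. The log2 difference was 4.97 ± 0.66 (SE), 31.4-fold, with a limma adjusted p of 0.00145. Among lucOS tumours the Mbl2 difference was 2.64 in set 1 (adjusted p = 0.078, limma) and 2.50 in set 2 (adjusted p = 0.085), again without overlap between groups but not called.

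Mbl1 (chr14:41151458-41159601, plus strand) was at 272.0, 548.8, 570.2 and 918.7 normalised reads in the luc β-catenin tumours, against 108.6, 14.8 and 175.2 in the luc p53 tumours. No p53 tumour reached the β-catenin range, and tumour 2 of the p53 group stood lowest here too. The log2 difference was 2.98 ± 0.70, with a limma adjusted p of 0.019. Among lucOS tumours it was 1.40 in set 1 and 0.75 in set 2, with limma adjusted p-values of 0.338 and 0.230.

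The 2 lectin genes lie on different chromosomes. Their promoters are shown because both genes were called in the same comparison, and the capitals mark the stretch of 30 bases with most identical letters between them, 27 of 30, found without gaps. It lies at -74 to -45 from the start of Mbl2 and at -40 to -11 from the start of Mbl1. The 250 bases before each start are given from RefSeq, build GRCm38.p6, chr19:30232678-30232927 and chr14:41151206-41151455, both on the plus strand.
Mbl2: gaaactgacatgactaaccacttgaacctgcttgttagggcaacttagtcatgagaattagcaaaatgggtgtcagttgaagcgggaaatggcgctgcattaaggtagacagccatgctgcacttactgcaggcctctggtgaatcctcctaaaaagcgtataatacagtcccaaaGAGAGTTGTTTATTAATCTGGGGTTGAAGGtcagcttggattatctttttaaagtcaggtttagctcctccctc
Mbl1: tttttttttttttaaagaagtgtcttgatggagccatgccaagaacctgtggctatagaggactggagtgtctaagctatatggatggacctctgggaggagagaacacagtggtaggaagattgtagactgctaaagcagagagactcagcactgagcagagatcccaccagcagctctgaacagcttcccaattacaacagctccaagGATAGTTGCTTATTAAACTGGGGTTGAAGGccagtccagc

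C2 (chr17:34862604-34898265, minus strand) encodes the protease that joins C4b in the C3-cleaving enzyme. In set 2 it was at 210.3, 467.7 and 1268 normalised reads in the lucOS β-catenin tumours, against 2076, 1438, 1871 and 1621 in the lucOS p53 tumours. The groups did not overlap, and the β-catenin tumours spread widely among themselves. For C2 the log2 difference was -1.79 ± 0.47 (limma adjusted p = 0.0311). The call was lost, with adjusted p-values of 0.0526 to 0.0776, when any of the 4 p53 tumours or lucOS β-catenin tumour 1 or 2 was left out. In set 1 the C2 differences were -0.31 (luc) and -0.38 (lucOS), neither called.

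The remaining recognition and early protease genes were not called. C4b, whose product carries the classical and lectin routes forward, differed by -1.11 ± 0.35 among luc tumours (limma adjusted p = 0.0562) and by -1.19 ± 0.37 among lucOS tumours of set 2 (adjusted p = 0.0550), without overlap in either. C4b has a near-identical neighbour, C4a, and C1ra has one, C1rb, so reads may be split between the copies and these values are uncertain. C1ra and Masp2, proteases of the classical and lectin routes, had negative differences in all 3 comparisons, between -0.27 and -1.09. Masp1, a lectin-route protease, had differences of 0.66, 0.39 and -0.08.

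C3 and Cfb, the centre and the amplifying protease of complement, were not called. C3 was at 337920, 275110, 369300 and 252140 normalised reads in luc β-catenin tumours, against 212870, 181990 and 179680 in luc p53 tumours. These groups did not overlap, with a log2 difference of 0.68 ± 0.29 (limma adjusted p = 0.138). In set 2 C3 ranged from 95461 to 415310 among lucOS β-catenin tumours and from 63249 to 168390 among lucOS p53 tumours, which overlapped. Cfb differed by 0.31, 0.26 and -0.31 on the log2 scale in the 3 comparisons.

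Of the 6 genes of the terminal complex, C8g was higher with β-catenin among luc tumours and C6 among lucOS tumours of set 2. C6 is the component that follows C5b in assembling the pore. In set 2 C6 (chr15:4727175-4814967, plus strand) was at 116.4, 164.2 and 633.6 normalised reads in lucOS β-catenin tumours, against 3.65, 25.8, 3.98 and 7.13 in lucOS p53 tumours. The lowest β-catenin tumour lay above the highest p53 tumour, which was tumour 2. On the log2 scale C6 differed by 4.78 ± 0.71, 27.4-fold, with a limma adjusted p of 0.00469. The MYC.luc.CTNNB1 tumours of set 2, which are not in that comparison, held C6 at 788.7, 838.7 and 617.1 normalised reads.

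C6 was less uniform in set 1. Among luc tumours it was at 154.1, 832.1, 89.5 and 754.2 normalised reads with β-catenin, against 1.36, 21.6 and 47.7 with p53. The groups did not overlap, and the log2 difference of 4.48 ± 1.5 was not called (limma adjusted p = 0.0651). In lucOS tumours of set 1 C6 was at 35.8 and 943.1 with β-catenin, against 12.5, 337.5 and 265.1 with p53, which overlapped, and the difference was 0.80 ± 1.80. C6 had 4, 28, 4 and 6 reads in the 4 p53 tumours of set 2, of which only tumour 2 reached the minimum of 10 normalised reads. C6 passed the filter of set 2 through the β-catenin tumours. Its call and fold difference there are therefore no more than a description of where it was detected.

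The C6 promoter held the C/EBP motif TTGCNNCAA, marked in capitals, at -186 to -178 from the start. That motif was found in 2.08% of all 32851 promoter windows of 300 bases. The sequence is chr15:4726960-4727209, plus strand, from RefSeq GRCm38.p6.
C6: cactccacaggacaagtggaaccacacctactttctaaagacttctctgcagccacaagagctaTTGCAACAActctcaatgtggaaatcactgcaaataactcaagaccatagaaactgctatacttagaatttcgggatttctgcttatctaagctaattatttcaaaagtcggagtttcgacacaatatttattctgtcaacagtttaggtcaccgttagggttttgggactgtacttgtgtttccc

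C8g (chr2:25498651-25501719, minus strand) encodes the small γ chain of C8. It was at 5635, 2088, 2188 and 1743 normalised reads in luc β-catenin tumours, against 376.1, 53.3 and 568.8 in luc p53 tumours. Again no values overlapped, with β-catenin tumour 1 far above the other β-catenin tumours. For C8g the log2 difference was 3.51 ± 0.71, 11.4-fold (limma adjusted p = 0.0106). In lucOS tumours of set 1 it was 2.81 ± 0.84 (adjusted p = 0.0793, limma), without overlap. In set 2 C8g was at 387.1, 435.3 and 863.2 in lucOS β-catenin tumours, against 182.5, 2745, 418.9 and 547.8 in lucOS p53 tumours, a difference of -0.15 with overlapping groups that became 0.0079 after TMM rescaling.

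The promoter of C8g is printed beside it as a called member. None of the motifs searched was found in its 300-base window, which here is given without its last 50 bases (chr2:25501720-25501969, minus strand, RefSeq GRCm38.p6).
C8g: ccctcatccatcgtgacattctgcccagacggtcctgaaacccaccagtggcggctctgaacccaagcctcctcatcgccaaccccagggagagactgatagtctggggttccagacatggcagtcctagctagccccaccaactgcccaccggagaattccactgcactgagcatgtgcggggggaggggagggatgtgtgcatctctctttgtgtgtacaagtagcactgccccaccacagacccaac

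C8a and C8b encode the other chains of C8 and lie 11130 bases apart on chromosome 4. C8a was at 232.2 and 305.2 normalised reads in lucOS β-catenin tumours of set 1, against 5219, 3320 and 1611 in lucOS p53 tumours. The groups did not overlap, and the log2 difference of -3.51 ± 1.12 was not called (limma adjusted p = 0.092). Among luc tumours it was -0.09, which became 0.10 after TMM rescaling. The ratio of C8a to C8b per kb spanned 21.0-fold over the 12 tumours of set 1 and 18-fold over the 10 of set 2, and neither C8b nor Hc, the gene of C5, was called in any comparison.

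C9, the component that polymerises into the pore, had differences of both signs. Among luc tumours it was 2.3 ± 1.36, among lucOS tumours of set 1 -3.39 ± 1.63 and in set 2 3.84 ± 1.39, with limma adjusted p-values of 0.265, 0.236 and 0.0815. In set 1 both lucOS β-catenin tumours were under the minimum of 10 normalised reads, at 3.74 and 7.16. In set 2 C9 was at 23.3, 14.1 and 177.7 normalised reads in lucOS β-catenin tumours, and the lucOS p53 tumours had 0, 0, 8 and 5 reads. The 3-read floor of those p53 tumours corresponds to 2.74 to 3.56 normalised reads. Their highest value was 7.96, under the minimum of 10 normalised reads, so C9 passed the filter of set 2 through β-catenin tumours alone.

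Of the 4 complement regulators, vitronectin (Vtn) was lower with β-catenin in set 2, and no other was called. Vitronectin binds the terminal complex and the plasminogen activator inhibitor. Vtn (chr11:78499091-78502324, plus strand) was at 11736, 31748 and 16065 normalised reads in lucOS β-catenin tumours, against 51444, 45233, 57806 and 44843 in lucOS p53 tumours. All 3 β-catenin tumours lay below all 4 p53 tumours. On the log2 scale Vtn differed by -1.45 ± 0.38 (limma adjusted p = 0.0317). The call was lost, with adjusted p-values of 0.0505 to 0.0932, when any p53 tumour or lucOS β-catenin tumour 1 or 3 was left out.

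In set 1 the Vtn differences were -0.49 among luc and -0.58 among lucOS tumours, both without overlap and not called. C4bp, which takes apart the C3-cleaving enzyme, differed by 1.31, 0.66 and -1.44 in the 3 comparisons. Cfi, the protease that cuts C3b, had differences of -0.29, -0.26 and -0.65. Serping1, the inhibitor of C1 and of contact proteases, differed by 1.62, -0.83 and -0.38, with limma adjusted p-values of 0.165 to 0.664.

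None of the 4 contact system genes was called. Kng1, which encodes kininogen, was positive in all 3 comparisons, with log2 differences of 0.83, 0.63 and 1.01 and limma adjusted p-values of 0.0698, 0.290 and 0.0771. It has a near copy, Kng2, so its reads are uncertain too. Kng2, named after its values were seen, was called higher with β-catenin in set 2, at 1.32 (limma adjusted p = 0.0304). Among luc tumours Kng1 was at 44870, 27237, 42789 and 30403 normalised reads with β-catenin, against 23289, 15410 and 22422 with p53, without overlap. F12, F11 and Klkb1, the contact proteases, differed by 0.25, -0.01 and 0.33 among luc tumours and by -1.07, -0.53 and -1.71 in set 2. The F11 value of -0.01 became 0.18 after TMM rescaling.

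Among the 5 clotting factors, F5 was higher with β-catenin among luc tumours and again among lucOS tumours of set 2, and F7 was higher among luc tumours. F5 encodes factor V, the cofactor with which factor X converts prothrombin to thrombin. F5 (chr1:164151838-164220277, plus strand) was at 15990, 12935, 28619 and 13060 normalised reads in luc β-catenin tumours, against 2011, 663.8 and 2113 in luc p53 tumours. The lowest β-catenin tumour was far above the highest p53 tumour. The F5 difference was 3.56 ± 0.44, 11.8-fold (limma adjusted p = 0.000917).

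In set 2 F5 was at 7409, 5831 and 29512 normalised reads in lucOS β-catenin tumours, against 4612, 1593, 2606 and 3159 in lucOS p53 tumours. The groups did not overlap, and lucOS β-catenin tumour 3 stood far above the other β-catenin tumours. The log2 difference was 1.96 ± 0.52 (limma adjusted p = 0.0319). The call was lost, with adjusted p-values of 0.0514 to 0.0768, when p53 tumour 2, 3 or 4 or lucOS β-catenin tumour 3 was left out, and without that last tumour the difference was 1.24. In lucOS tumours of set 1 F5 was at 18585 and 12305 with β-catenin, against 4159, 5372 and 2516 with p53. These did not overlap, and the difference was 1.98 ± 0.52 (limma adjusted p = 0.0561).

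The promoter of F5, the member called most often, held none of the searched motifs in its 300-base window, and its 250 bases before the start are printed (chr1:164151585-164151834, plus strand, RefSeq GRCm38.p6).
F5: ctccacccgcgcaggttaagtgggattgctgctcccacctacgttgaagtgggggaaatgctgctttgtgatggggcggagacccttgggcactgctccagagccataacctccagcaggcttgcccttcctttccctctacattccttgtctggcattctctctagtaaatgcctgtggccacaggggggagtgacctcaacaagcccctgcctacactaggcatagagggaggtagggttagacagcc

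F7 (chr8:13026034-13035809, plus strand) encodes factor VII, which binds tissue factor at the start of clotting. It was at 8745, 2954, 2983 and 2162 normalised reads in luc β-catenin tumours, against 1623, 872.6 and 1746 in luc p53 tumours. The groups did not overlap, but β-catenin tumour 1 was far above the rest. On the log2 scale F7 differed by 1.41 ± 0.42 (limma adjusted p = 0.0462). Without β-catenin tumour 1 it was 0.98 (adjusted p = 0.0501), and the call was lost on leaving out any other tumour of set 1 except lucOS p53 tumour 2 and luc β-catenin tumour 4, with adjusted p-values of up to 0.157.

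F9 and F10, proteases of the chain, and F2, which encodes prothrombin, were not called. F9 differed by 0.96, 0.60 and 0.56 on the log2 scale, with limma adjusted p-values of 0.0784, 0.405 and 0.462. F10 differed by 0.55, 0.33 and -0.01, the last turning to 0.14 after TMM rescaling. F2 differed by 0.48, 0.20 and 0.05, and its normalised reads stayed between 18511 and 56686 in all 22 tumours.

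**Figure D4:**
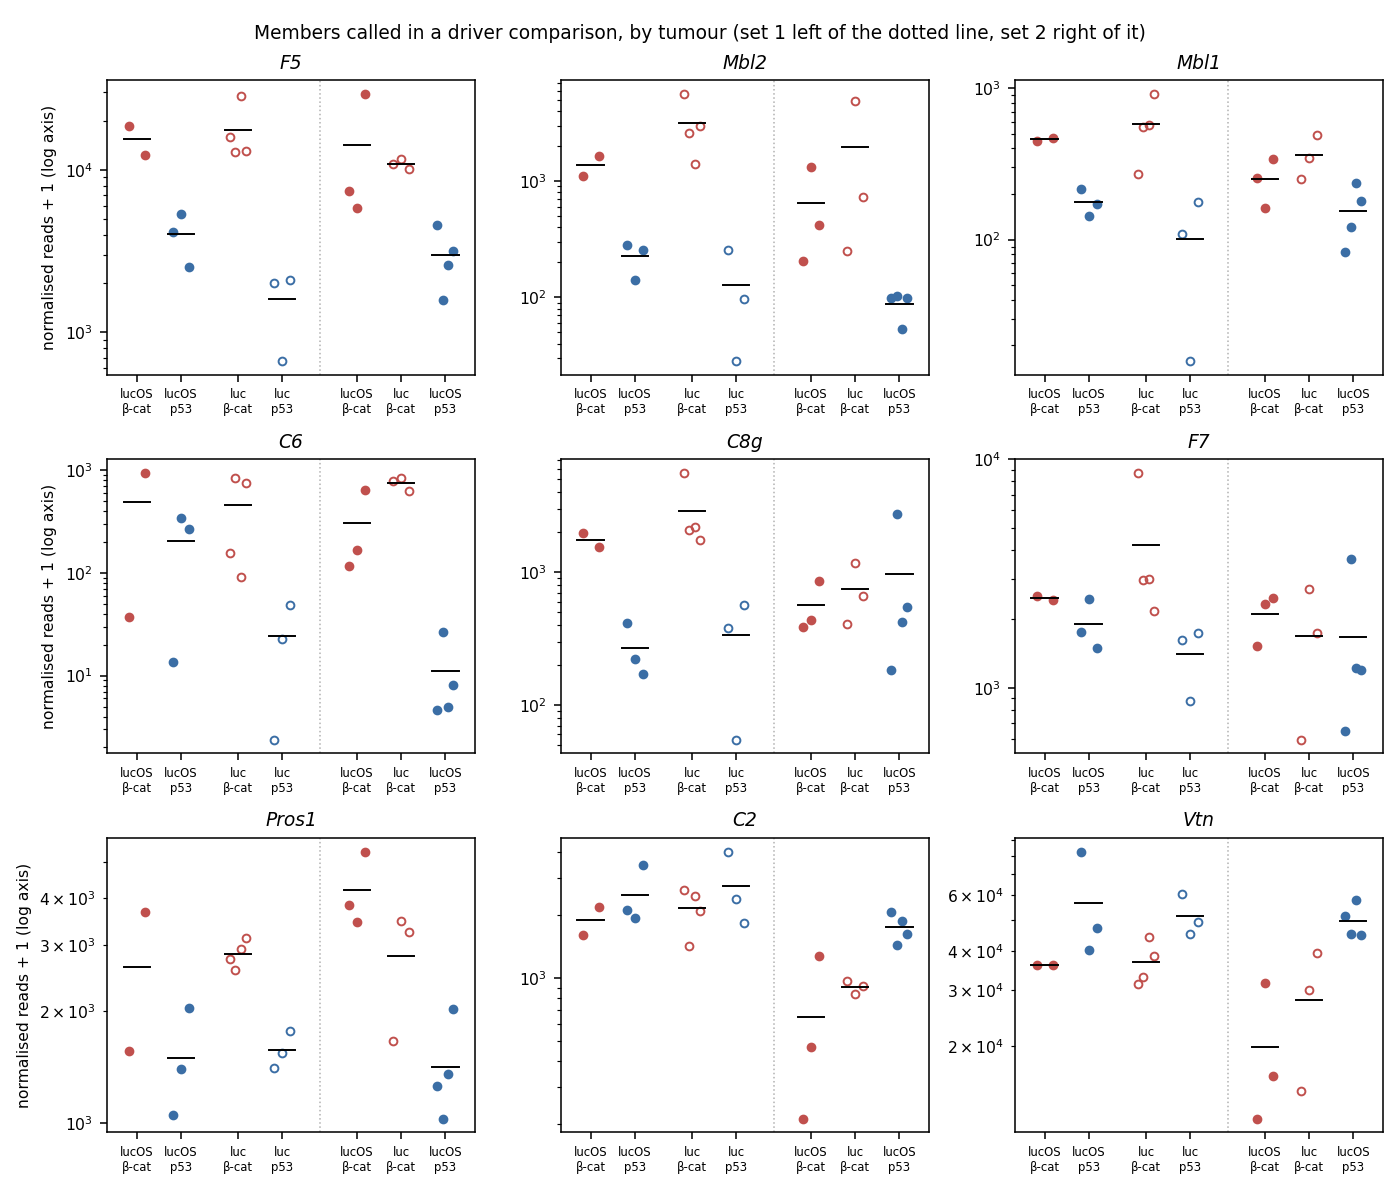
Normalised reads + 1 (log axis) of the 9 members called in a driver comparison, by group, with a point per tumour and a line at the group mean. Red points are β-catenin and blue points p53 tumours, filled for lucOS and open for luc; for F5 every β-catenin tumour lies above the p53 tumours of its own comparison.

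The 4 genes of fibrin formation were not called. Fga, Fgb and Fgg, the chains of fibrinogen, had log2 differences between -0.07 and 0.18 among luc tumours and between 0.41 and 0.72 in set 2. The Fgb value of -0.07 became 0.12 after TMM rescaling. Fga was at 81636, 116240, 79690 and 86117 normalised reads in luc β-catenin tumours, against 88761, 87133 and 78713 in luc p53 tumours, which overlapped. F13b, a carrier subunit of the fibrin cross-linking enzyme, differed by 0.21, -0.26 and -0.19.

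The fibrinogen genes lie next to each other on chromosome 3 and kept nearly the same proportion from tumour to tumour. The ratio of Fga to Fgb per kb had a median of 1.94 in set 1 and 1.79 in set 2, and it spanned 1.43-fold over 12 and 1.33-fold over 10 tumours. The level of Fga itself spanned 2.80-fold and 3.70-fold. The lucOS β-catenin tumour 2 of set 1, with 183520 normalised reads of Fga, and the lucOS β-catenin tumour 3 of set 2, with 157760, were the highest of their sets for all 3 chains. In set 2 p53 tumour 1 was the lowest for all 3.

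Promoters of the members were searched on both strands for the HNF1 core GTTAAT, the longer HNF1 palindrome, which contains that core, the C/EBP motif TTGCNNCAA and the TCF/LEF motif ATCAAAG. A window of 300 bases, 250 before the start and 50 after it, was given for 30 of the 39 members. The HNF1 core was found in 10 of these 30, or 33.3%, and in 7.1% of all 32851 windows. The palindrome was in 0 of 30 members and 0.00913% of all windows, C/EBP in 6.67% and 2.08%, and TCF/LEF in 6.67% and 3.73%. A match of letters is a description and not a site of binding, and none of the 5 promoters printed above held the HNF1 core.

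The 10 matches to the HNF1 core are shown with 10 bases on each side because this core was the motif found most often in the members. Capitals mark the core as read on the gene's own strand, GTTAAT or its reverse complement ATTAAC, and coordinates are RefSeq GRCm38.p6.
Fga (chr3:83026100-83026125, plus, -43 to -38): aagggtgatgATTAACctcctgccgg
Fgb (chr3:83049877-83049902, minus, -29 to -24): aatgtcaaatATTAACtaaagggagg
F13b (chr1:139501646-139501671, plus, -51 to -46): cattgtaattATTAACttgttttgtc
F2 (chr2:91636434-91636459, minus, 8 to 13): tcggttcaatATTAACccagagagag
Hc (chr2:35061471-35061496, minus, -74 to -69): gacattaataATTAACcggagaacta
C8a (chr4:104876490-104876515, minus, -107 to -102): ttggttactaGTTAATcacattgaat
C8b (chr4:104766101-104766126, plus, -206 to -201): ctttacctgtATTAACcctctaaccc
C1ra (chr6:124512451-124512476, plus, -160 to -155): cccagaaaatGTTAATccgatttaga
C4bp (chr1:130661667-130661692, minus, -64 to -59): gctctagtctGTTAATcattcaccgg
Vtn (chr11:78498998-78499023, plus, -112 to -107): gctcagggagATTAACgggactggct
Of the 10, Vtn was called in a driver comparison, lower with β-catenin in set 2, and the other 9 were not called in any.

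Among the 4 anticoagulants, protein S (Pros1), the cofactor of activated protein C, was higher with β-catenin in set 2. Pros1 (chr16:62854307-62929346, plus strand) was at 3829, 3445 and 5334 normalised reads in lucOS β-catenin tumours, against 1257, 1026, 1358 and 2019 in lucOS p53 tumours. All 3 β-catenin tumours lay above all 4 p53 tumours. For Pros1 the log2 difference was 1.59 ± 0.31, 3.01-fold (limma adjusted p = 0.0112). Among luc tumours Pros1 was at 2748, 2569, 2925 and 3124 with β-catenin, against 1408, 1541 and 1762 with p53, also without overlap, and the difference of 0.86 ± 0.29 was not called (limma adjusted p = 0.0641). TMM rescaling gave 1.05 there, with an adjusted p of 0.0370.

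Serpinc1 (antithrombin), Serpind1 (heparin cofactor) and Proc (protein C) were not called. Serpinc1 differed by 0.43, 0.39 and -0.11 on the log2 scale, the last turning to 0.05 after TMM rescaling. Serpind1 differed by 0.87, -0.40 and -1.23. Proc differed by 0.35, 0.51 and -1.02, with limma adjusted p-values of 0.547, 0.532 and 0.280.

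The 3 genes of fibrinolysis were not called. Serpinf2, the antiplasmin serpin, was at 2266, 16653 and 2033 normalised reads in lucOS β-catenin tumours of set 2, against 27721, 29177, 27092 and 31019 in lucOS p53 tumours. All β-catenin tumours lay below all p53 tumours, but their own spread was wide, and the log2 difference was -2.76 ± 0.87 (limma adjusted p = 0.0559). In set 1 it was -0.73 among luc tumours and -1.69 among lucOS tumours (adjusted p = 0.252 and 0.0769). Plg, the gene of plasminogen, differed by 0.94, 0.14 and 0.31, and Cpb2, a carboxypeptidase that protects fibrin, by -0.36, 0.05 and -0.77.

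In set 2, p53 tumours 1 to 3 have names starting with AL, while p53 tumour 4 and all 6 β-catenin tumours have names starting with JAX. With the JAX tumours alone, 3 lucOS β-catenin tumours against 1 p53 tumour, none of the 5 members of set 2 was called. The differences were 4.83 for C6, 1.03 for Pros1, 1.78 for F5, -1.69 for C2 and -1.30 for Vtn, with limma adjusted p-values between 0.157 and 0.62, and the lone p53 tumour was assumed to vary like the other groups. In that comparison 23 of all genes were called, against 2656 with all tumours. The name and the driver can therefore be told apart only through p53 tumour 4.

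Lists of cell types and of the acute phase are described beside these members. Of the 9 hepatocyte markers summed above, 8 had positive differences and 1 negative among luc tumours, with 1 called higher. Among lucOS tumours 6 were positive and 3 negative in set 1, and 5 positive and 4 negative in set 2. In both lucOS comparisons 0 hepatocyte markers were called. Among luc tumours, 13 of 14 acute phase genes had positive differences and 5 were called higher with β-catenin. Their sums were 279150 to 456020 normalised reads in β-catenin tumours and 153800 to 164410 in p53 tumours. Among lucOS tumours of set 1, 12 were positive and 2 called higher. Sums there were 394620 to 416840 with β-catenin and 150270 to 233260 with p53. In set 2, 10 were positive and 0 called, with lucOS sums of 90280 to 200290 and 65680 to 156430. Among luc tumours all 8 macrophage markers in the tables were positive, 1 of them called, with sums of 7752 to 16973 in β-catenin tumours and 1646 to 11192 in p53 tumours. In each lucOS comparison 5 macrophage markers were positive and 3 negative, with medians of 0.06 in set 1 and 0.05 in set 2, where 1 was called higher and 1 lower. All 5 T cell markers were negative in set 2, and 4 of them were called lower with β-catenin. T cell sums there were 104.5 to 108.6 in lucOS β-catenin tumours and 265.0 to 688.1 in lucOS p53 tumours. In both comparisons of set 1 all 5 were negative too, with 0 called. Of 8 endothelial markers 4 had positive and 4 negative differences in set 2, of which 2 were called lower and 0 higher, with sums of 3846 to 6620 in lucOS β-catenin tumours and 7213 to 9748 in lucOS p53 tumours. Neutrophil markers were all 5 negative in set 2, 2 of them called, and of 9 stellate cell and fibroblast markers 6 were negative and 3 positive there (median -0.38), with 2 called higher and 0 lower. All 5 bile duct markers were negative in both comparisons of set 1, with 1 called lower in each. In set 2, 2 of them were positive and 3 negative, with 0 called. Their part in the members' differences was not tested.

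A further 58 genes of complement, coagulation and fibrinolysis were described from a fixed list, of which 53 were tested in set 1 and 57 in set 2. Among luc tumours 3 were called higher with β-catenin and 2 lower, or 9.43% of those tested against 15.1% of all genes, and the median difference was 0.65. Among lucOS tumours 1 was higher and 1 lower in set 1 (3.77% against 4.21% of all genes, median 0.08), and 5 were higher and 3 lower in set 2 (14% against 17%, median -0.15). Cd59a, which blocks pore assembly by the terminal complex, was higher in all 3, with log2 differences of 2.22, 1.86 and 2.15. A2m, a broad protease inhibitor, was lower in all 3, with differences of -5.58, -6.08 and -4.32.

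A2m averaged 165.0 ± 144.2 normalised reads in luc β-catenin tumours (SD, n = 4) and 5756 ± 2034 in luc p53 tumours (SD, n = 3). C1rl, a complement gene related to C1r, was higher among luc tumours, by 0.97. C4a was lower among luc tumours and in set 2, by -3.53 and -1.92, with the caution given for C4b. In set 2 Vsig4, a macrophage receptor for C3 fragments, averaged 96.3 ± 92.8 in lucOS β-catenin tumours and 4.50 ± 3.42 in lucOS p53 tumours, a difference of 3.88. The highest lucOS p53 tumour was at 9.51, under the minimum of 10 normalised reads. Vsig4 thus passed the filter through β-catenin tumours alone, and its call only describes where it was detected. In set 2 F2rl1, a protease-activated receptor, was higher by 2.11 and Procr, the receptor of protein C, lower with a difference of -1.77.

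C7, which follows C6 in the pore, was at 8.73 to 12.4 normalised reads in lucOS β-catenin tumours of set 2, and all 4 lucOS p53 tumours were at 0. Set against a floor of 3 reads per p53 tumour, the mean of the β-catenin tumours was at least 3.71-fold higher. C7 passed the filter on low values through β-catenin tumours alone, so its call is no more than a description of where it was detected.

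The lucOS tumours were compared with luc tumours within each driver. No member was called among p53 tumours of set 1 or among β-catenin tumours of either set, and 0% of all genes were called by limma. Unadjusted p-values were under 0.05 for 1 member in each of the 3 comparisons and for 722, 222 and 288 of all genes, and edgeR and DESeq2 called 0 members in each. Of all genes edgeR called 0 and DESeq2 9, 18 and 10. F5 had the lowest p among p53 tumours, at 4159, 5372 and 2516 normalised reads with lucOS, against 2011, 663.8 and 2113 with luc. It was the only member without overlap in that comparison, higher with lucOS, where 4.63% of all genes were so, 5.07% were lower and 9.7% were either. The F5 difference was 1.44 ± 0.47 (limma adjusted p = 0.952).

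Among β-catenin tumours of set 1, C9 was at 7.16 and 3.74 normalised reads with lucOS, against 69.1, 200.6, 15.2 and 774.5 with luc. These groups did not overlap, as was the case for 2 members, C8a and C9, both lower with lucOS. Of all genes 2.95% were lower without overlap, 3.4% higher and 6.34% either. The C9 difference was -4.21 ± 1.55 (limma adjusted p = 1). In set 2 C6 was at 116.4, 164.2 and 633.6 with lucOS, against 788.7, 838.7 and 617.1 with luc, which overlapped, and differed by -1.69 ± 0.75 (limma adjusted p = 1). No member was without overlap there, and of all genes 2.18% were higher with lucOS, 2.36% lower and 4.54% either.

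The driver difference of lucOS tumours was also set against that of luc tumours in set 1. No member was called in this interaction by limma or edgeR, 0% of all genes were called by limma, and DESeq2 called 1 member, C9, and 17 of all genes (0.106%). Unadjusted p-values were under 0.05 for 4 members, C9, C8a, Mbl2 and F5, and for 436 of all genes. The driver difference was smaller with lucOS by 2.33 ± 1.03 for Mbl2 and by 1.58 ± 0.68 for F5 on the log2 scale, each with a limma adjusted p of 0.9998. A difference of the Mbl2 or F5 response between lucOS and luc tumours was therefore not shown.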

How the data were processed

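Libraries were made from total RNA of 22 liver tumours (TruSeq, per the labels' protocols). Strand is not given in the sources used here, so reads of overlapping or antisense genes cannot be told apart. The submitters' processing notes name TopHat2, featureCounts, DESeq2 and build mm10, without versions. The authors deposited 2 tables of normalised signal, 1 per transcript (33068 rows) and 1 per gene. In both, 100% of values were whole reads divided by 1 factor per sample, within 0.01 reads. Where a gene had several transcripts in the first table, that of highest mean level was used.

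Log2(value + 1) was fitted with limma 3.58.1 (R 4.3.3), with a trend, after leaving out genes below 10 in all but at most 1 (set 1) or 2 (set 2) tumours. Each set had a single fit with every group, and p-values were adjusted by Benjamini-Hochberg over all genes tested. The scripts were tested on simulated data. Alternatives were TMM rescaling, a pseudocount of 0.5, no filter, the mean over transcripts, only the groups compared, edgeR 4.0.16 and DESeq2 1.42.0 on the recovered reads, each tumour left out, and JAX tumours alone.

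The members, lists and tests were chosen with earlier results of these data known. Full values are given for members called in a driver comparison, up to 8 per direction, and for up to 4 other pathway genes per direction. Positions are GENCODE vM21 on GRCm38, the assembly of mm10. Floors are 3 reads per library and cover counting error only. Replicates are numbered in accession order. A pathway gene that the naming rule chose is not reported here.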

Additional observations from a re-analysis of the deposited data

Results flagged for a closer look

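In the groups of 4 tumours, 78 combinations of member and group were examined for a tumour far from the other 3, on normalised reads without logs. By Dixon's criterion 11 had one. The criterion flags about 1 in 20 groups by chance only where values are normally distributed, which was not tested. The 11 are therefore not read as an excess. Members of a group share tumours, so these are not independent.

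In set 1, 6 of them were the luc β-catenin tumour 1. It was the highest for Masp1 (7085 normalised reads, others 1452 to 2151), C8g (5635, others 1743 to 2188), Klkb1 (3326, others 1584 to 1742), F7 (8745, others 2162 to 2983) and Serpinf2 (37412, others 12706 to 16401). It was the lowest for F9, at 1133 normalised reads against 2482 to 2609 in the others. Without it the luc difference of F7 was no longer called, and that of C8g was.

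The other 5 were lucOS p53 tumours of set 2. Tumour 2 was the highest for C6 (25.8, others 3.65 to 7.13) and C8g (2745, others 182.5 to 547.8). Tumour 3 was the lowest for Mbl2 (52.7, others 96.7 to 102.1) and the highest for Proc (5486, others 3494 to 3581). Tumour 1 was the lowest for Plg, at 4814 normalised reads against 11875 to 12957 in the others.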

How the results depend on the processing

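The 10 called member differences gave 180 values under the alternatives, none of opposite sign; 143 stayed called and 37 did not. Mbl1, Mbl2, C8g and F5 among luc tumours stayed called under all 19 alternatives, and C6 and Pros1 in set 2 under all 17 but the JAX tumours alone. F7 lost its call in 12 of 19, and C2, Vtn and F5 of set 2 in 9, 8 and 6 of 17. The count of members among luc tumours was 12 with DESeq2 (5 in the report, 4 to 5 with a tumour left out). Among lucOS tumours of set 1 it was 6 with DESeq2 and 0 to 4 with a tumour left out: 4 without luc p53 tumour 2, 2 without lucOS p53 tumour 2, and 1 without luc β-catenin tumour 1 or 3. In set 2 the count was 3 with edgeR (7.69% of members, against 14.3% of all genes). It was 10 with DESeq2 (25.6% of members, against 24.6% of all genes). With a tumour left out it was 2 to 11: 11 without luc β-catenin tumour 1, 9 without lucOS β-catenin tumour 2, 2 without p53 tumour 2 or 3, and 3 without p53 tumour 1 or 4 or lucOS β-catenin tumour 1 or 3. The interaction had 1 member with DESeq2 and 0 with a tumour left out. The lucOS against luc comparisons had 0 members with DESeq2 and 0 with a tumour left out. TMM rescaling changed the calls of all genes among luc tumours to 1221 higher and 682 lower, against 956 and 1475 as deposited, among lucOS tumours of set 1 to 317 and 197, against 261 and 417, and in set 2 to 1317 and 1022, against 950 and 1706. Of all genes among lucOS tumours of set 1, 678 were called, 19 with only the groups compared, 418 with edgeR, 2053 with DESeq2 and 76 (lucOS β-catenin tumour 2) to 951 with a tumour left out. The ranges with a tumour left out were 812 (luc p53 tumour 1) to 2674 of all genes among luc tumours and 1127 (p53 tumour 3) to 2821 in set 2. Counts with a tumour left out thus moved for all genes too, and nothing particular to the members is read from theirs. The cause of these changes was not tested. No paired analysis was possible because the labels give no replicate numbers shared between groups. Groups of 2 to 4 tumours limit the precision, and C6, C7 and C9 rest on few reads in p53 tumours. The call of C6 in set 2 thus only describes where it was detected, also where it stayed called. In set 1 C9 rests on few reads in the lucOS β-catenin tumours as well, at 3.74 and 7.16 normalised reads.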

Other observations

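Several members lie next to each other in the genome, and their proportions varied unequally between tumours. F7 and F10, 1498 bases apart on chromosome 8, had a ratio per kb that spanned 4.00-fold over the 12 tumours of set 1 and 5.17-fold over the 10 of set 2. F11 and Klkb1, 4657 bases apart on chromosome 8, had a ratio that spanned 15.4-fold and 4.95-fold. For C2 and Cfb, 85 bases apart on chromosome 17, it spanned 2.32-fold and 4.79-fold. Both genes of each pair lie on the same strand, so knowing the strand would not separate any reads they share. These spans are given as descriptions with no test.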
